A study of Mus musculus with 4 samples.

Results

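The genes described are 10 members of the epidermal growth factor (EGF) signalling family, taken by name from the 31053 genes listed in the count matrices. They comprise the ligands Egf, Areg, Hbegf, Ereg, Tgfa and Nrg1 and the ErbB receptors Egfr, Erbb2, Erbb3 and Erbb4. Their RNA was measured by droplet single-cell sequencing in 4 libraries of mouse submandibular gland, a major salivary gland, after removal of most epithelium. All mice were female C57BL6/J. In 2 deligated libraries the main ducts had been clipped for 14 days and then released for 5 days, and the mice were 14 weeks old. The 2 homeostatic libraries came from glands without surgery at an age of 12 weeks, so age differed along with surgery.

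EpCAM-bearing epithelial cells and Ter119-bearing red cells had been depleted with magnetic beads and dead cells removed, so the epithelial cells described here are those that escaped depletion. How many animals gave each library is not given in the labels, and p-values measure the spread between these libraries. The protocols also name the sublingual gland, and whether its cells are included is not clear. Deligated matrices came from Cell Ranger 6.0.1 and homeostatic matrices from Cell Ranger 7.0.0, per the file headers, so the effect of the software cannot be told apart from that of the surgery.

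EGF family ligands are made as membrane-bound precursors and are released by proteases such as ADAM17. They bind ErbB receptors, which pair up and signal through the adaptors GRB2, SHC1 and GAB1 to the RAS-ERK cascade. EGFR is the receptor for EGF, amphiregulin (Areg), TGF-alpha, HB-EGF and epiregulin (Ereg), the last 2 of which also bind ERBB4. Neuregulins such as NRG1 bind ERBB3 and ERBB4. ERBB2 has no ligand of its own and serves as a partner, and ERBB3 has little kinase activity and needs a partner. In the mouse submandibular gland, the granular convoluted ducts store EGF for secretion into saliva, and NRG1 with ERBB3 is a classic signal from axons to Schwann cells, the glia of peripheral nerves.

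The libraries held 4725 and 8713 deligated and 12854 and 13266 homeostatic cell barcodes, with 35662241 to 53898793 UMIs (unique molecular identifiers, one per captured RNA molecule) each. Median UMIs per barcode were 6075 and 5278 against 2912.5 and 2765.5. Filtering retained 33695 of 39558 barcodes, and any pair of libraries shared 14 to 54 barcodes. Clustering without the 10 genes gave 35 clusters, of which 27 were named by markers into 10 classes and 8 stayed unnamed. Each class is called by resemblance, and its own marker list was present in each library. All 10 markers of the fibroblast list, for example, were found in fibroblast-like cells, together making up 46330 to 60940 of every 1000000 UMIs. Different clusters held most endothelial-like, NK/innate lymphoid-like, T cell-like and fibroblast-like cells in the 2 groups, and classes rather than clusters were compared.

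Over all barcodes 9 and 8 of the 10 genes had a UMI in the deligated libraries, and 10 in each homeostatic library. In retained cells Hbegf gave 1185 and 1281 deligated and 942 and 894 homeostatic UMIs. Egfr gave 751, 892, 729 and 682 UMIs in the same order of libraries, Areg 138, 298, 127 and 157, and Erbb2 181, 278, 152 and 132. Egf gave 28, 42, 252 and 206, Tgfa 59, 106, 84 and 84, and Erbb3 64, 172, 152 and 152. Nrg1 (14, 0, 32 and 57), Erbb4 (0, 0, 96 and 105) and Ereg (1, 0, 0 and 0) were sparse. Levels are given as UMIs of the gene per 1000000 UMIs of the cells described (CPM), in the order deligated 1 and 2, then homeostatic 1 and 2.

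**Figure D1:**
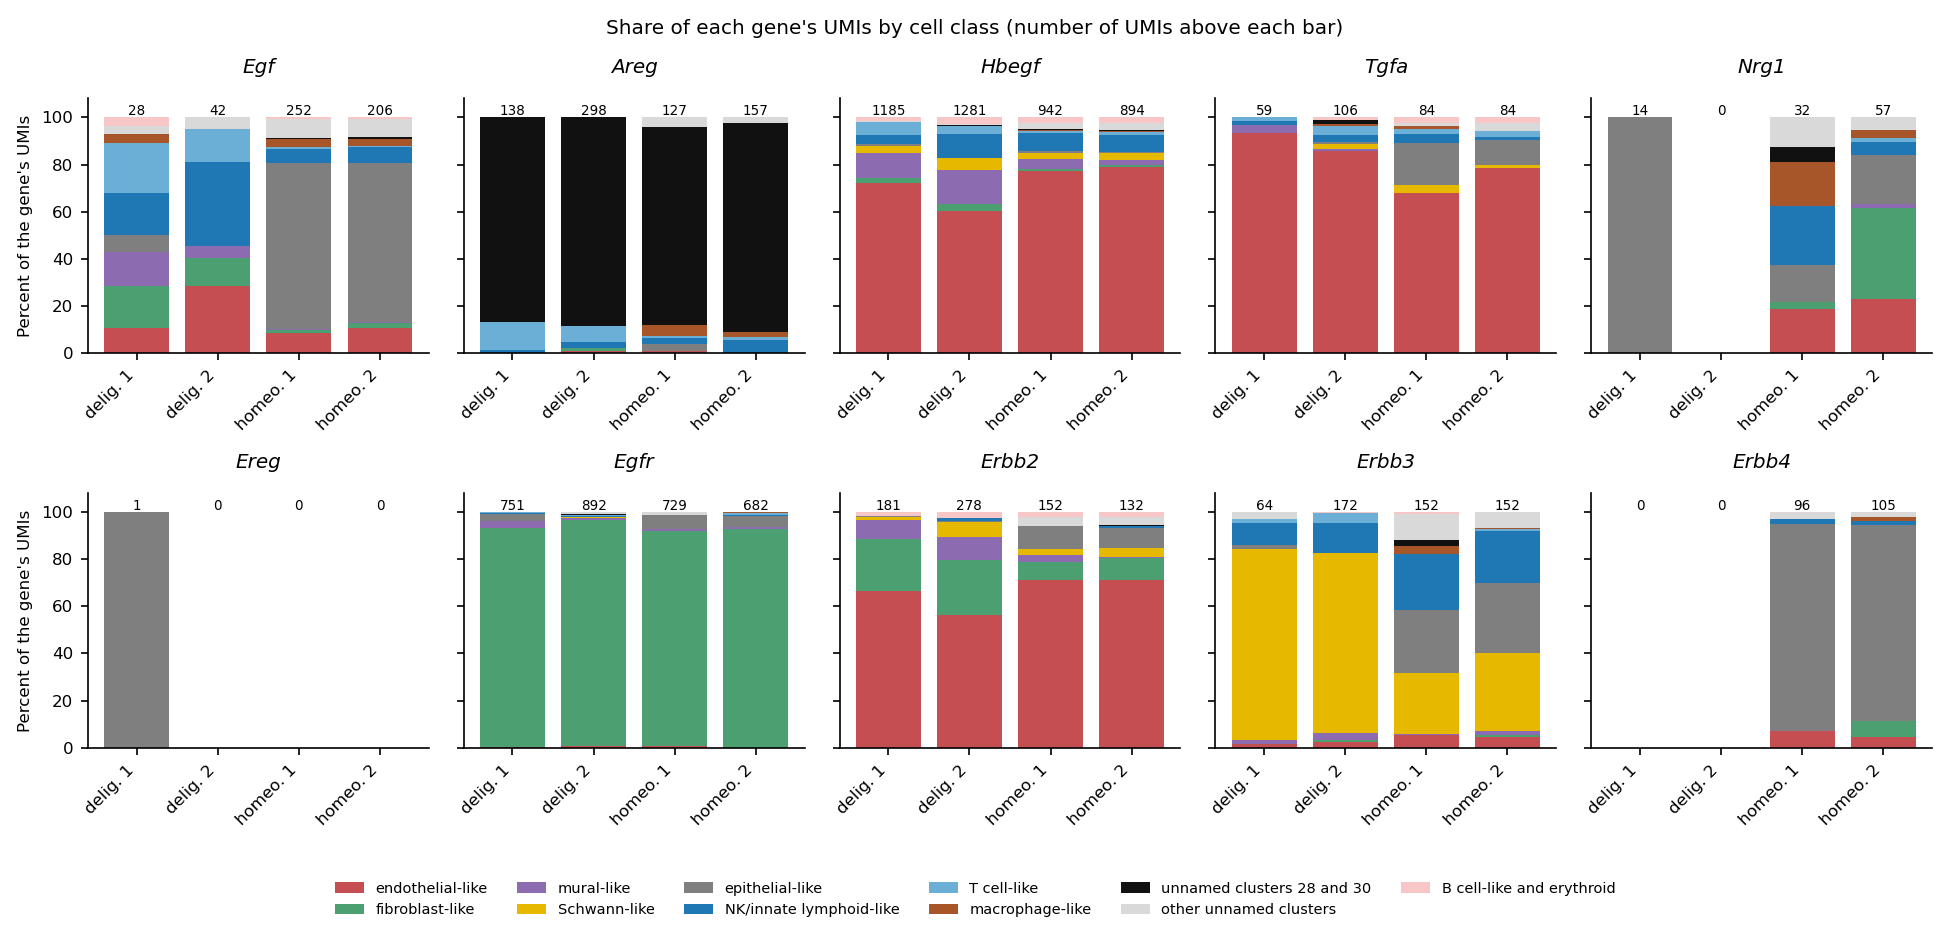
Each bar is 1 library (delig., deligated; homeo., homeostatic), and the colours divide the gene's UMIs in retained cells by cell class as a percentage, with the number of UMIs above the bar. Most Hbegf and Tgfa UMIs lay in endothelial-like cells, most Areg UMIs in unnamed clusters 28 and 30, and over 90% of Egfr UMIs in fibroblast-like cells.

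The upstream sequences of Areg and Egfr are shown because the results turn on them: most Areg UMIs lay in 2 small clusters and over 90% of Egfr UMIs in fibroblast-like cells. They are the 250 bases before each RefSeq gene start on GRCm38.p6, 5′ to 3′ on the gene's strand, with chr5:91139349-91139598 (+) for Areg and chr11:16751953-16752202 (+) for Egfr. Capitals mark the searched motifs: the CRE palindrome TGACGTCA, the GC box GGGCGG and the TATA box letters TATAAA, each on both strands and without overlap here.
Areg: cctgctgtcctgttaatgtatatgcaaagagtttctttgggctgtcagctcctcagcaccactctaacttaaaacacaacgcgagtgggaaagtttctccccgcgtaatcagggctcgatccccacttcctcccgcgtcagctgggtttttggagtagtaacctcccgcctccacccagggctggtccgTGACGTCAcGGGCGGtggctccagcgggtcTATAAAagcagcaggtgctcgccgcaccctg
Egfr: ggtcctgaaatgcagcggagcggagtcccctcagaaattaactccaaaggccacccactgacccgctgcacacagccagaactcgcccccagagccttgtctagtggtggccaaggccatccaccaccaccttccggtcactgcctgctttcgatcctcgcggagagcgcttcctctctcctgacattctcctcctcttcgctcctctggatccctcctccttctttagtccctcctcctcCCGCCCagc

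The Areg stretch held 1 match to each of the 3 motifs. Its GC box and TATA box letters lay on the gene's strand, and the palindrome reads the same on both strands. The Egfr stretch held 1 GC box on the other strand and neither of the other motifs. Of 32851 upstream stretches of the same length in the RefSeq table, 1.55% held TGACGTCA, 32.7% held GGGCGG and 12.4% held TATAAA. GC content was 57.2% for Areg and 60.8% for Egfr against a median of 52.4%. A match is a description of these letters and says nothing of factor binding. RefSeq entries were matched for 6 of the 10 genes.

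Hbegf, a heparin-binding EGFR ligand (GRCm38 chromosome 18, 36504927-36515805), reached its highest level in Schwann-like cells, glia of the gland's nerves. Their levels were 212.2 and 230.7 CPM in the deligated and 226.1 and 286.0 CPM in the homeostatic libraries, from 27, 60, 28 and 21 cells. The groups overlapped. With doublets kept, the Schwann-like means moved from 221 ± 13.1 to 182.5 CPM (deligated) and from 256 ± 42.3 to 141.4 CPM (homeostatic; SD, n = 2), so that the order of the group means turned, in 103 deligated and 123 homeostatic cells.

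Mural-like cells, the contractile cells around vessels, held 55.5 and 71.1 against 71.0 and 42.4 CPM of Hbegf. Within them, cluster 17, led by the smooth muscle genes Myh11 and Tagln, had 66.7, 88.0, 94.7 and 47.2 CPM. Cluster 19, led by the pericyte channel genes Abcc9 and Kcnj8, had 36.8, 41.5 and 27.3 CPM in the first 3 libraries. In each of those 3 libraries the smooth muscle-led cluster was the higher of the pair, which was not tested.

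Endothelial-like cells, which line the vessels, held 58.6 and 46.1 against 49.7 and 50.0 CPM of Hbegf, and these groups overlapped as well. As the most numerous class they held 72.2, 60.2, 77.4 and 79.1% of the gene's UMIs in the 4 libraries. A UMI was seen in 25.5, 17.6, 14.6 and 15.4% of these cells at median depths of 5835, 4416, 3622 and 3621 UMIs. After thinning each cell to 1000 UMIs the shares were 3.65, 4.04, 3.83 and 4.51%. In NK/innate lymphoid-like cells, at median depths of 5501 to 6259 UMIs, a UMI was seen in 4.40, 4.91, 6.09 and 5.17% of cells.

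Endothelial-like cluster 15, led by the P-selectin gene Selp and the von Willebrand factor gene Vwf, stood at 30.3, 23.1, 23.1 and 6.69 CPM of Hbegf, under the class level in each library. Levels were 8.48, 10.4, 10.7 and 8.69 CPM in NK/innate lymphoid-like cells and 5.05, 5.81, 4.60 and 3.61 CPM in fibroblast-like cells. T cell-like cells ranged more widely, at 19.6, 9.45, 5.12 and 13.7 CPM. Within T cell-like cells, cluster 25, led by Cd163l1, Il17a and Blk, held 59.4, 57.4 and 64.3 CPM in the libraries with at least 20 of its cells, and cluster 6 held 5.34 and 4.44 CPM in the deligated libraries. Erythroid cells had 54.6 and 31.6 against 33.2 and 55.5 CPM of Hbegf (17, 37, 19 and 23 UMIs), and also carried the 10 endothelial markers, at a summed 9478 to 12250 CPM. By level, Schwann-like cells came first, with no overlap. Mural-like, endothelial-like and erythroid cells followed, and their ranges overlapped each other. T cell-like, NK/innate lymphoid-like and fibroblast-like cells lay lower, the T cell-like range overlapping both others.

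Hbegf was tested by group in 6 of these classes with edgeR's quasi-likelihood test on UMI counts summed per class and library, with Benjamini-Hochberg adjustment over all genes of the class. The log2 fold change, deligated over homeostatic, was 0.09 (SE 0.147, adjusted p = 0.666) in endothelial-like cells, 0.08 (adjusted p = 0.772) in NK/innate lymphoid-like cells and 0.12 (adjusted p = 0.872) in mural-like cells. It was -0.23 (adjusted p = 0.75) in Schwann-like, 0.47 (adjusted p = 0.44) in fibroblast-like and 0.74 (adjusted p = 0.399) in T cell-like cells. None passed the threshold of 0.05. Without the second deligated library the endothelial-like and T cell-like changes did pass, at 0.31 (adjusted p = 5.93e-05) and 1.22 (adjusted p = 0.0207) by the same edgeR test, and without the first they were -0.14 and 0.13. The Cd163l1-led cluster 25 made up 25.1 and 8.52% of T cell-like cells in the deligated and 9.64 and 16.2% in the homeostatic libraries. In the other T cell-like cells, a split chosen after the values were seen, Hbegf stood at 5.33 and 4.44 against 3.36 and 4.95 CPM, and the groups overlapped.

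Tgfa, another EGFR ligand (chromosome 6, 86195223-86275719), had most of its UMIs in endothelial-like cells, at a low level, with 55, 91, 57 and 66 UMIs and 3.77 and 5.45 against 3.89 and 4.67 CPM. These were 93.2, 85.9, 67.9 and 78.6% of its UMIs. In cluster 15, where Hbegf was under the class level, Tgfa stood at 4.57, 13.1, 12.3 and 15.1 CPM, above the class level in each library. The groups overlapped, and the log2 fold change in endothelial-like cells was 0.12 (edgeR, SE 0.237, adjusted p = 0.716). Per UMI of the class the level was not highest there in every library: Schwann-like cells had 0, 2, 3 and 1 Tgfa UMIs, or 0 and 6.79 against 27.1 and 11.4 CPM. Their exact Poisson 95% intervals, for counting error only, reached from 5.6 to 79.3 CPM and from 0.29 to 63.7 CPM in the homeostatic libraries, and the second of these holds the endothelial-like level. Fibroblast-like cells had no Tgfa UMI in any library.

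**Figure D2:**
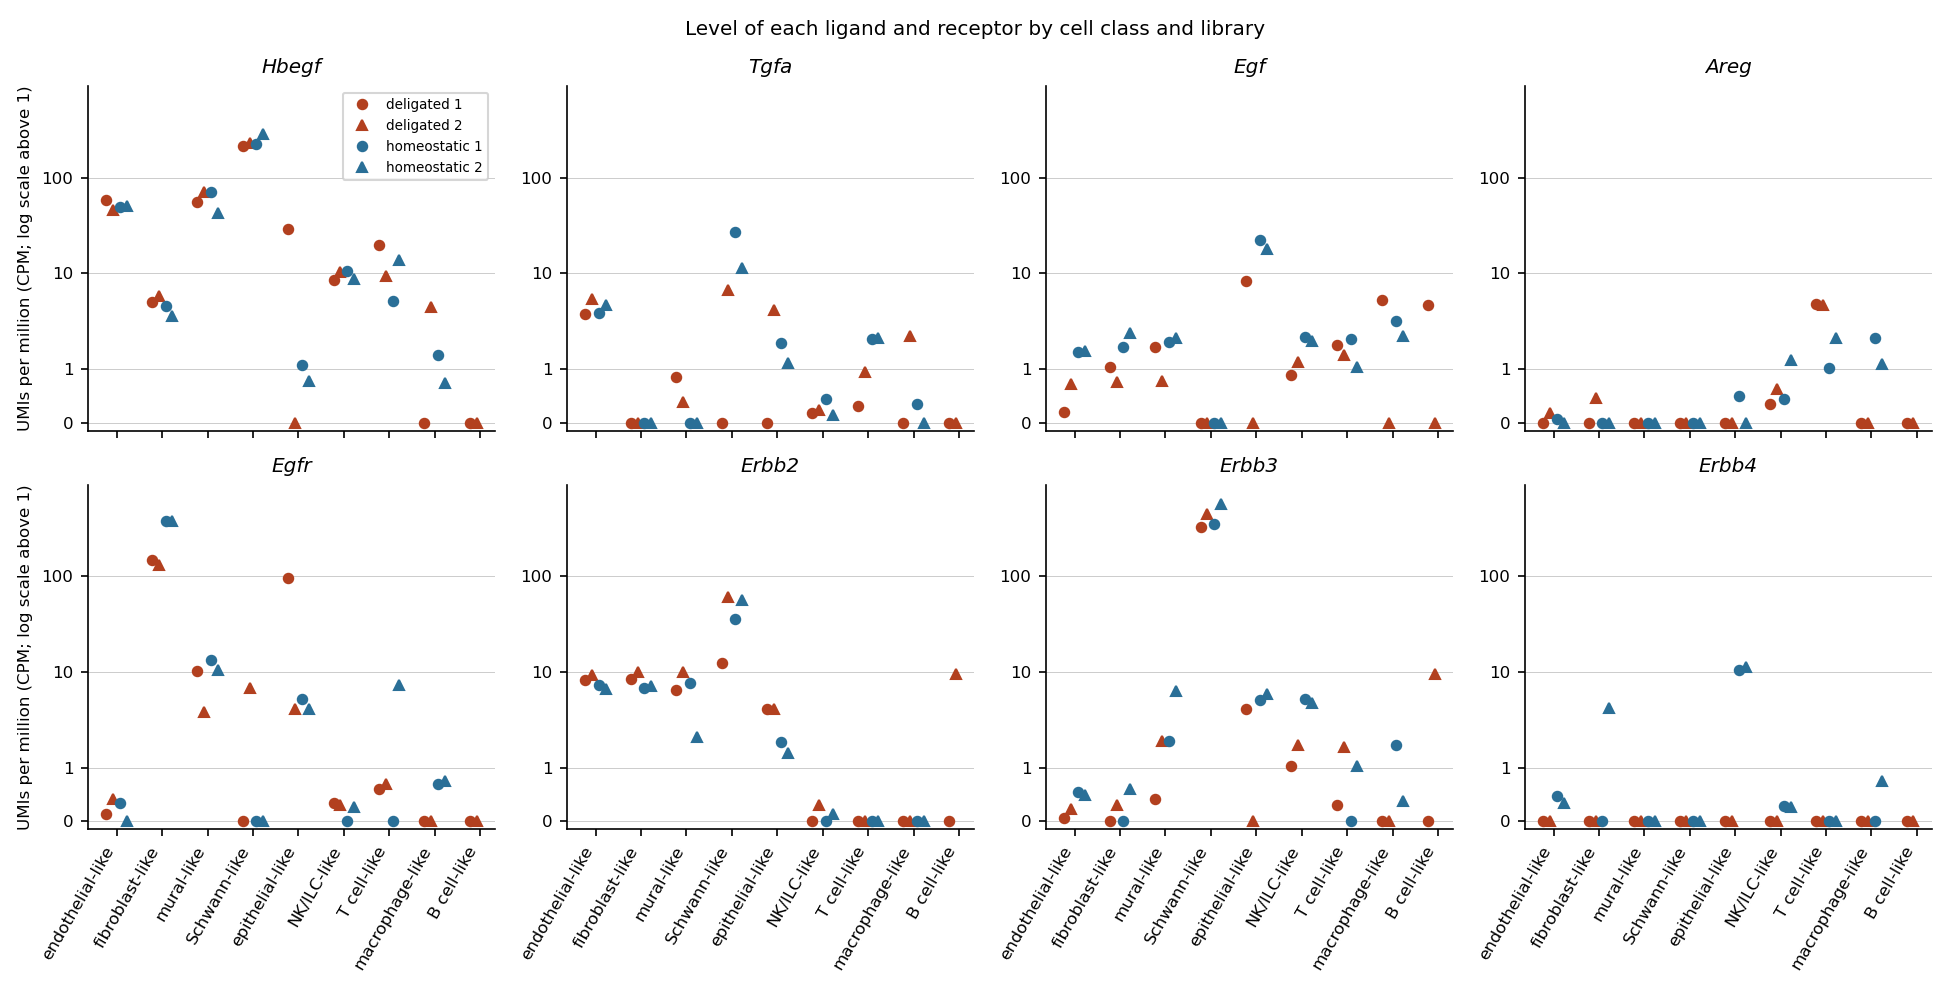
Each panel gives 1 gene's level in CPM (linear to 1 and logarithmic above) for 9 cell classes, with 1 point per library (red, deligated; blue, homeostatic). Hbegf and Erbb3 peak in Schwann-like cells and Egfr in fibroblast-like cells, where the blue points (382.4 and 380.7 CPM) lie above the red ones (146.5 and 130.4 CPM).

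Areg, amphiregulin (chromosome 5, 91139599-91148432), was concentrated in 2 small clusters, 28 and 30, which together held 87.0 and 88.6% of its UMIs in the deligated and 84.3 and 88.5% in the homeostatic libraries. They had 48, 131, 87 and 81 cells, or 1.10 and 1.67% against 0.820 and 0.743% of retained cells. Cluster 28 was nearly all deligated (48, 130, 2 and 0 cells) and cluster 30 nearly all homeostatic (0, 1, 85 and 81 cells). The pair was chosen after its Areg level was seen, so what follows describes it and tests nothing.

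In the 2 clusters Areg stood at 410.7 and 373.6 against 205.6 and 295.5 CPM, and in all other cells of the same libraries at 0.556, 0.745, 0.479 and 0.441 CPM. Both deligated values lay above both homeostatic ones. An Areg UMI was seen in 33.3 and 39.7% against 33.3 and 34.6% of the cells, shares that overlapped between groups. The single cell richest in Areg held 18.1, 12.8, 8.66 and 10.8% of the library's Areg UMIs.

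The 2 clusters also shared Il1rl1, which encodes the receptor of interleukin-33, at 366, 528, 498 and 580 CPM, and the blood cell gene Ptprc at 555, 485, 600 and 593 CPM. The T cell gene Cd3e had 0, 3, 1 and 0 UMIs in them and the NK cell gene Ncr1 0, 3, 5 and 10. The whole lists were not absent. The 11 T cell markers summed to 804, 873, 619 and 589 CPM, with 7, 2, 6 and 7 of them at 0. The 12 NK or innate lymphoid markers summed to 65.0, 84.9, 263 and 396 CPM, with 5, 0, 0 and 1 at 0. Leading genes of cluster 28 included Areg, Il1rl1, the cytokine genes Csf2 and Lif, and Il17rb. The clusters met fewer than 3 markers of any listed class and stay unnamed.

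Outside these clusters T cell-like cells had the most Areg in deligated libraries, at 4.83 and 4.73 CPM (16 and 20 UMIs) against 1.03 and 2.11 CPM (1 and 2 UMIs). In the second deligated library 1 cell held 13 of the 20 UMIs. The groups did not overlap, but the log2 fold change of 1.70 (SE 0.68) missed the threshold at an edgeR adjusted p of 0.122, and at 0.0598 to 0.581 under 9 other settings.

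**Figure D3:**
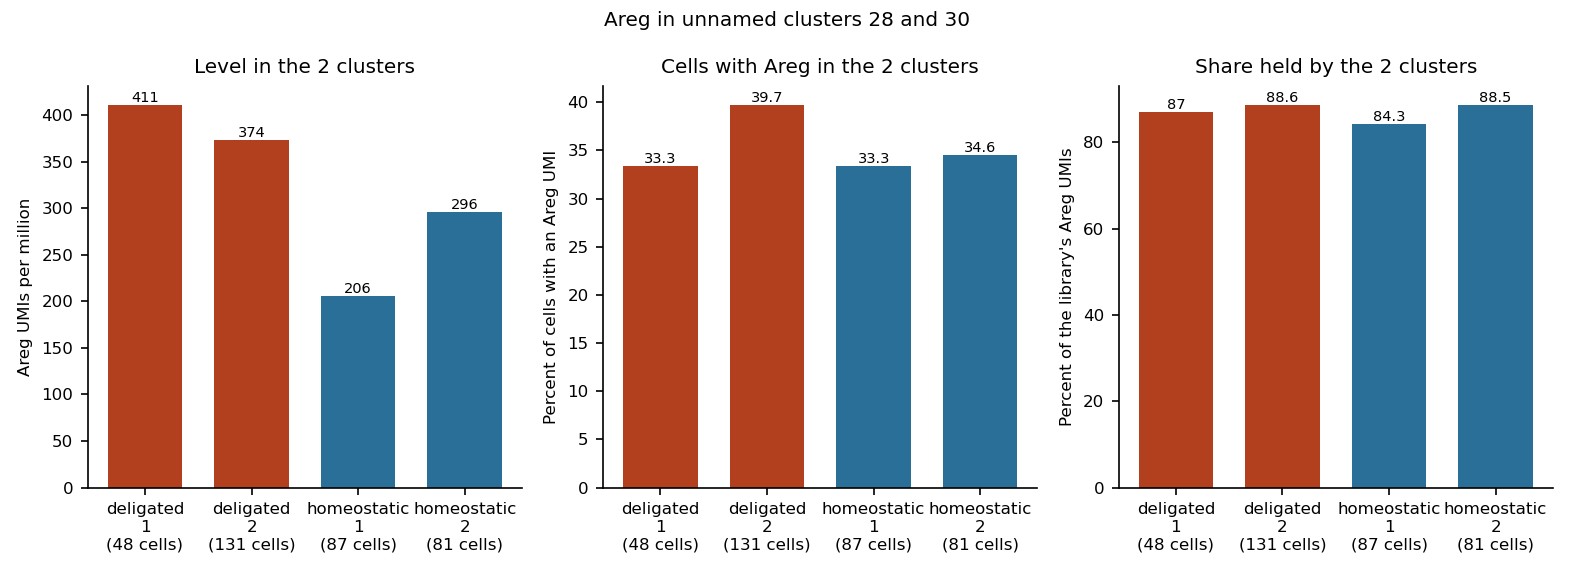
Bars give, for each library (cell number under the name), the Areg level in unnamed clusters 28 and 30 in CPM, the percentage of their cells with an Areg UMI, and their percentage of the library's Areg UMIs. Deligated levels are 411 and 374 and homeostatic levels 206 and 296, while the shares of cells overlap.

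Egf (chromosome 3, 129677565-129755316) was a transcript of the remaining epithelium in the homeostatic libraries. Granular duct-type cells had 43.8 and 40.4 CPM there (82 and 76 UMIs in 37 and 42 of 1023 and 1035 cells) and acinar-type cells, the saliva-secreting end pieces, 15.6 and 10.7 CPM (87 and 57 UMIs in 33 and 28 of 376 and 394 cells). The granular duct-type level leaned on 1 cell in each library, which held 33 of the 82 and 20 of the 76 UMIs, and without it the level was 26.5 and 29.8 CPM. The richest acinar-type cell held 10 and 7 UMIs. The deligated libraries held few epithelial-like cells (29 and 76, against 1766 and 1796), with 2 and 0 Egf UMIs. In deligated granular duct-type cells Egf gave 1 UMI in 8 cells and 0 in 54 cells, and the 0 allows up to 27.8 CPM for counting error alone. The mix of epithelial types also differed between libraries. In the first deligated library 19 of the 29 cells were basal or myoepithelial-type, against 4 of 76 in the second. The homeostatic libraries had 20 of 1766 and 21 of 1796 such cells. Granular duct-type cells were 54 of the 76 in the second deligated library. Over all epithelial-like cells Egf stood at 8.31 and 0 against 22.1 and 18.1 CPM, and the log2 fold change of -3.30 was not called (edgeR adjusted p = 0.122), in a class where 0.141% of all genes were called. It was called without the first (-9.75, adjusted p = 0.00493) or without the second deligated library (-2.83, adjusted p = 0.000372) by the same edgeR test, a lone library being assumed to vary like the other group.

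Endothelial-like cells had 3 and 12 against 22 and 22 Egf UMIs, or 0.206 and 0.718 against 1.5 and 1.56 CPM. The groups did not overlap, and the log2 fold change of -1.66 (SE 0.501) passed the threshold in edgeR with an adjusted p of 0.0454, in a class where 35% of all genes were called. This call was lost without the first deligated library (adjusted p = 0.0568) or either homeostatic one (0.185 and 0.215), in DESeq2 (0.129), with the replicate number as a block (0.0533) and with the intron-length trend, described for Egfr, removed (-1.42, 0.0817). In that last fit 30.2% of all genes were called. Granular duct markers moved the same way in these cells. Their 16 listed genes summed to 23.4 and 36.4 against 767.8 and 757.4 CPM, with 6, 2, 1 and 1 of them at 0 and Ren1, renin, at 0 in each library.

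Per 1000 UMIs of the kallikrein genes of the granular ducts, Egf had 8.82, 20.1, 1.96 and 2.07 UMIs in endothelial-like cells. The same ratio was 0.366, 0, 0.544 and 0.456 in granular duct-type cells and 21.9 and 9.24 in homeostatic acinar-type cells. The part of free epithelial RNA in the endothelial-like Egf difference was not tested. In NK/innate lymphoid-like cells the Egf change was -0.86 (edgeR adjusted p = 0.138).

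Nrg1, the main neuregulin (chromosome 8, 31814551-32884029), gave 14, 1, 87 and 124 UMIs over all barcodes and 14, 0, 32 and 57 in retained cells. All 14 of the first deligated library lay in 8 of its 19 basal or myoepithelial-type cells, the contractile and progenitor-bearing outer layer of the epithelium, at 67.1 CPM. The same cell type had 0 UMIs in 20 cells of the first homeostatic library and 5 UMIs (86.1 CPM) in 21 cells of the second. In the second library's fibroblast-like cells 22 UMIs lay in 6 cells, 10 of them in 1 cell. Fibroblast-like cells of the first homeostatic library had 1 Nrg1 UMI. Most other homeostatic Nrg1 UMIs were scattered, with 6 and 13 in endothelial-like, 8 and 3 in NK/innate lymphoid-like and 6 and 2 in macrophage-like cells, each in a cell of its own, and 5 and 12 in all epithelial-like cells. Nrg1 has 1059 kb of intron. Ereg, epiregulin, gave 1 UMI in all retained cells. Neither gene had enough counts for a test in any class.

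Egfr (chromosome 11, 16752203-16918158) was the receptor of fibroblast-like cells, which held 92.8, 95.6, 91.2 and 92.8% of its UMIs. Its level there was 146.5 and 130.4 CPM in the deligated libraries (697 and 853 UMIs, 352 and 697 cells) against 382.4 and 380.7 CPM in the homeostatic ones (665 and 633 UMIs, 251 and 245 cells). Both deligated values lay far under both homeostatic ones, with means of 138 ± 11.4 and 382 ± 1.19 CPM (SD, n = 2). The log2 fold change was -1.40 (SE 0.134, edgeR adjusted p = 3.82e-05), and it was called in 11 of 11 other settings, over a range of -1.52 to -0.55. None of these settings kept doublets. Of all genes tested in fibroblast-like cells, 26.6% were called.

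An Egfr UMI was seen in 78.1, 62.8, 83.7 and 82.0% of fibroblast-like cells (exact 95% intervals 73.4 to 82.3, 59.1 to 66.4, 78.5 to 88.0 and 76.7 to 86.6%), at median depths of 13250, 9328, 6775 and 6659 UMIs. After thinning to 1000 UMIs per cell the shares were 13.6 and 12.9% against 26.7 and 28.6%. In NK/innate lymphoid-like cells the unthinned shares were 0.226, 0.191, 0 and 0.188%. Pdgfra, a receptor gene that marks fibroblasts, stood at 1049 and 1410 against 1335 and 1401 CPM in the same cells, and these groups overlapped. Fibroblast-like cells came mostly from cluster 8 (Cilp, Col1a1, Gpx3) in the deligated and cluster 18 (Lsamp, Astn2, Eda) in the homeostatic libraries.

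Egfr has 154.6 kb of intron, and intron length moved with the group difference in fibroblast-like cells. The median log2 fold change was 0.33 for genes with under 1 kb of intron, 0.24 for 1 to 10 kb, -0.06 for 10 to 100 kb and -0.99 for the 1483 genes over 100 kb. Of the last, 65.2% were called lower and 2.56% higher. Whether intron reads were counted is not stated for either software version. Once this trend was removed within each library, the Egfr change was -0.55 (SE 0.12, edgeR adjusted p = 0.0117), and 17.8% of all genes were called.

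**Figure D4:**
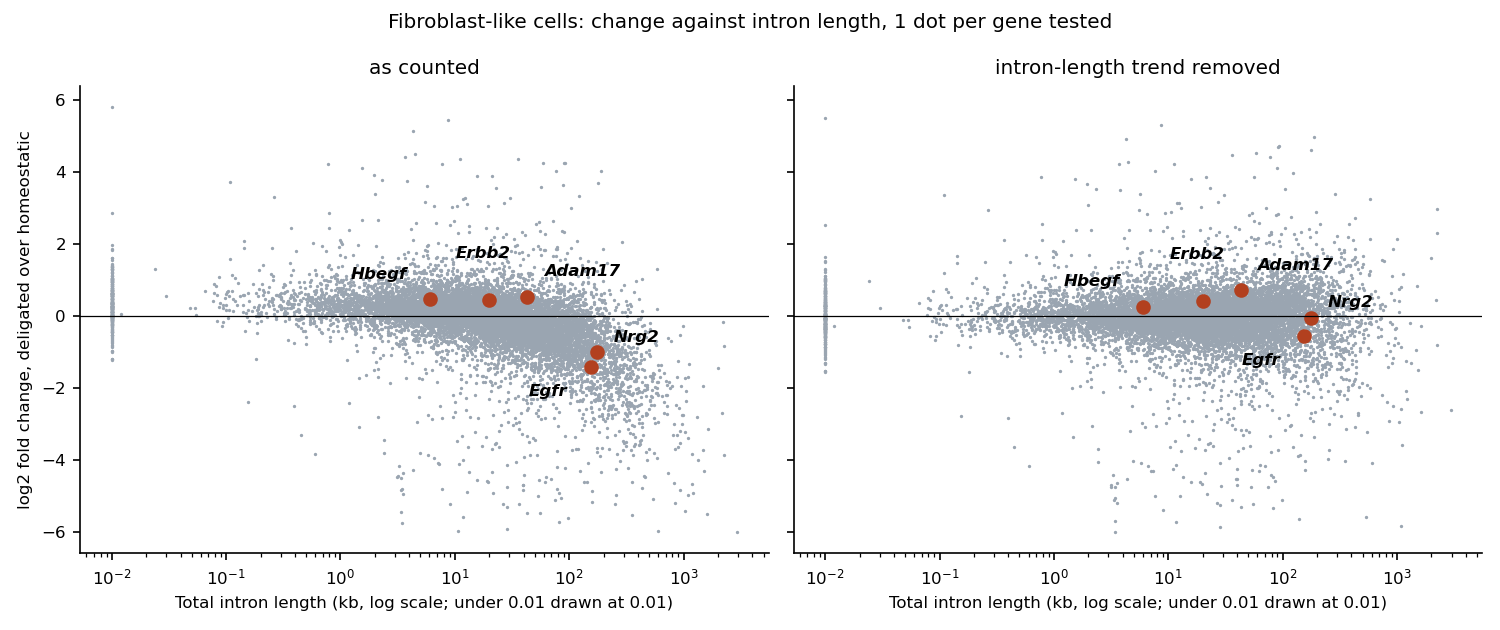
Each grey dot is a gene tested in fibroblast-like cells, placed by its total intron length (kb, log scale) and its log2 fold change, deligated over homeostatic, as counted (left) and with the intron-length trend removed (right). Egfr moves from -1.40 to -0.55 and the ligand gene Nrg2 from -0.997 to -0.04.

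Egfr was also seen in basal or myoepithelial-type cells, at 110, 0, 251 and 121 CPM, and in mural-like cells, at 10.3 and 3.86 against 13.4 and 10.6 CPM. All 4 mural-like values lay below the 4 of fibroblast-like cells, and the mural-like change of -0.81 was not called (edgeR adjusted p = 0.576, in a class where 6.29% of all genes were called). The difference between the mural-like and fibroblast-like changes, tested with limma on within-library differences, was 0.47 (adjusted p = 0.646). Endothelial-like cells had at most 0.42 CPM of Egfr. In epithelial-like cells, which were mostly basal or myoepithelial-type in the first deligated library (19 of 29), the Egfr change of 2.34 was not called (edgeR adjusted p = 0.19). It was -0.80 without that library, and without the second deligated library it was called (2.77, adjusted p = 9.84e-10). With doublets kept the homeostatic epithelial-like level was 24.4 CPM, against 5.23 and 4.17 CPM without them. The class then held other clusters: a cluster of 436 cells led by Scgb2b26 was left unnamed and a deep cluster of 127 cells led by Smgc was included.

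Erbb2, the shared partner receptor (chromosome 11, 98412470-98437716), was spread over the vessel and connective tissue classes. Endothelial-like cells had 8.22 and 9.33 against 7.36 and 6.65 CPM, fibroblast-like cells 8.41 and 10.1 against 6.90 and 7.22 CPM, and mural-like cells 6.46 and 10.1 against 7.68 and 2.12 CPM. In the first 2 classes both deligated values lay above both homeostatic ones, but neither log2 fold change was called (0.34, adjusted p = 0.129, and 0.46, adjusted p = 0.335, edgeR). The mural-like change of 0.68 was not called either (edgeR adjusted p = 0.68). The levels of these 3 classes overlapped each other.

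Schwann-like cells had 12.5 and 61.1 against 36.2 and 57.2 CPM of Erbb2, from 2 to 18 UMIs per library. Mien1 overlaps Erbb2 on the other strand and gave 762 to 1060 UMIs in endothelial-like cells, and whether counting used strand is not stated, so Erbb2 levels carry that uncertainty.

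Erbb3, the neuregulin receptor (chromosome 10, 128567523-128589652), was highest in Schwann-like cells, at 324.6 and 444.5 against 352.8 and 572.0 CPM (52, 131, 39 and 50 UMIs). The groups overlapped, and the log2 fold change was -0.27 (SE 0.29, edgeR adjusted p = 0.671), in a class where 10.6% of all genes were called. An Erbb3 UMI was seen in 88.9, 78.3, 60.7 and 90.5% of Schwann-like cells against 0.0527 to 0.195% of endothelial-like cells, at median depths of 3609 to 4778 and 3621 to 5835 UMIs. With doublets kept the Schwann-like mean of Erbb3 moved from 385 to 339 CPM in the deligated and from 462 to 211 CPM in the homeostatic libraries, so that the order of the group means turned, and the groups no longer overlapped (319.2 and 358.7 against 147.8 and 274.5 CPM). Schwann-like cells held 81.3 and 76.2% of the Erbb3 UMIs in the deligated and 25.7 and 32.9% in the homeostatic libraries. Acinar-type cells of the homeostatic libraries had 5.38 and 6.22 CPM.

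NK/innate lymphoid-like cells had 6 and 22 against 36 and 34 Erbb3 UMIs, or 1.06 and 1.73 against 5.28 and 4.77 CPM. The log2 fold change was -1.66 (SE 0.352, edgeR adjusted p = 0.00564), in a class where 44% of all genes were called, and was lost without the first homeostatic library (adjusted p = 0.063) and called in the 11 other alternatives. In the homeostatic libraries 22 of the 36 and 22 of the 34 UMIs lay in 3 and 4 cells with at least 3 Erbb3 UMIs, which held 228 and 282 UMIs of the NK markers and 3 and 4 of the Schwann markers. That split was chosen after the counts were seen. The remaining NK/innate lymphoid-like cells had 1.06 and 1.73 against 2.06 and 1.69 CPM, and there the groups overlapped. Over the whole class the 11 Schwann markers summed to 33.8 and 42.1 against 46.5 and 53.4 CPM, with 4, 0, 3 and 0 of them at 0.

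Erbb4, the other neuregulin receptor (chromosome 1, 68032186-69108059), had no UMI in either deligated library. The homeostatic libraries held 176 and 175 over all barcodes and 96 and 105 in retained cells. Acinar-type cells held 77 and 85 of these, at 13.8 and 16.0 CPM, in 19 of 376 and 20 of 394 cells (5.05 and 5.08%). Of 3 acinar-type clusters, cluster 20, led by the secretoglobin gene Scgb2b26, held 75 and 83 of the UMIs, in 17 of 197 and 18 of 198 cells at median depths of 8570 and 9396 UMIs. The deligated libraries held 2 and 8 acinar-type cells against 376 and 394, and their counts of 0 allow up to 177 and 26.3 CPM, above both homeostatic levels. A difference in Erbb4 per acinar-type cell was thus not detectable with so few deligated cells. The epithelial-like change was not called (edgeR adjusted p = 0.13), except without the second deligated library (adjusted p = 0.000651). Erbb4 has 1064 kb of intron.

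Over all classes, 22 pairs of a gene and a class could be tested, from 8 of the genes in 7 classes. The values of the 2 groups did not overlap in 13 of the 22 pairs, or 59.1%. Over all genes tested, the groups did not overlap for 63.4% in fibroblast-like, 69% in endothelial-like, 48.9% in mural-like, 51.2% in Schwann-like, 61.7% in epithelial-like, 70.9% in NK/innate lymphoid-like and 58.9% in T cell-like cells. Weighted by the number of pairs in each class, that is 61.6%, so the share among the pairs was near that of all genes. Those called were 3, each lower in the deligated libraries: Egfr in fibroblast-like, Egf in endothelial-like and Erbb3 in NK/innate lymphoid-like cells. Of all genes, 26.6%, 35% and 44% were called in these 3 classes, and 19% in T cell-like and 13.4% in macrophage-like cells. After removal of the intron-length trend the calls in fibroblast-like and NK/innate lymphoid-like cells were left, where 17.8% and 29.6% of all genes were then called. In the 3 tests of a difference between classes 6.15%, 0.0538% and 0% of all genes were called. Of the family only Hbegf, Erbb2 and Egfr could be tested there, Egfr for mural-like minus fibroblast-like cells alone, and none was called. Egf and Erbb3 were in none of these tests.

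**Figure D5:**
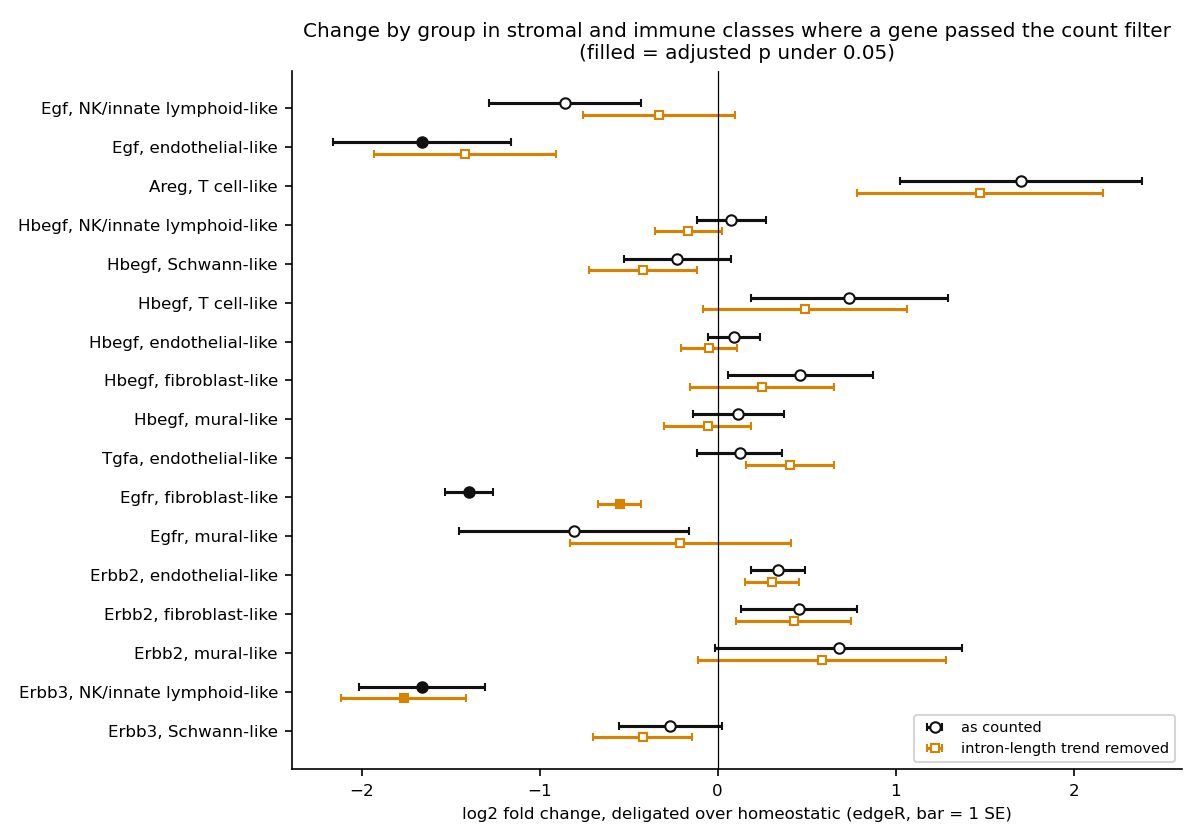
Points give the log2 fold change, deligated over homeostatic, with bars of 1 SE (edgeR), for the 17 gene and class pairs tested outside the epithelium, as counted (black) and with the intron-length trend removed (orange). Filled points passed an adjusted p of 0.05, which as counted were Egf in endothelial-like, Egfr in fibroblast-like and Erbb3 in NK/innate lymphoid-like cells.

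Of the other EGF family ligands listed (Btc, Epgn, Nrg2, Nrg3 and Nrg4), Nrg2 alone passed the count filter in a class. Nrg2, another neuregulin, stood at 17.7 and 17.3 against 38.0 and 34.9 CPM in fibroblast-like cells, a log2 fold change of -0.997 (edgeR adjusted p = 0.00274). After removal of the intron-length trend it was -0.04 (adjusted p = 0.902), so that the call depended on that setting. In NK/innate lymphoid-like cells the same setting worked the other way. Nrg2 stood there at 4.42 and 6.29 against 3.96 and 4.63 CPM, groups that overlapped, and its change of 0.45 (edgeR adjusted p = 0.227) became 1.76 and was called (adjusted p = 0.00235) with the trend removed. In endothelial-like cells it was called in neither fit (0.32, adjusted p = 0.595, and 1.12, adjusted p = 0.104, edgeR). In macrophage-like cells Nrg2 had 0 and 0 against 8.08 and 9.00 CPM and was not called (edgeR adjusted p = 0.0513). Genes of ligand shedding and trafficking gave 1 higher and 0 lower calls of 7 in endothelial-like, 1 and 0 of 6 in fibroblast-like, 1 and 1 of 6 in macrophage-like, 0 and 2 of 6 in NK/innate lymphoid-like and 0 and 2 of 5 in T cell-like cells. With the trend removed no lower call was left in these classes, and the higher calls were 2, 1, 1, 0 and 0. Over all genes of the same 5 classes, higher calls took 12.9, 8.87, 4, 17.1 and 4.81% and lower calls 22.1, 17.7, 9.42, 26.9 and 14.2%, and with the trend removed 13.1, 8.46, 2.85, 13.4 and 3.23% and 17.1, 9.37, 2.42, 16.2 and 4.99%. Leaving out 1 library in turn moved the higher calls of the list over 0 to 3, 0 to 4, 0 to 1, 0 to 1 and 0, and the lower calls over 0 to 1, 0 to 1, 0 to 1, 1 to 3 and 0 to 2. Without either homeostatic library no call of the list was left in endothelial-like, fibroblast-like, macrophage-like and T cell-like cells, nor in macrophage-like cells without the second deligated one. Adam17, the main sheddase of these ligands, rose in fibroblast-like cells, at 67.9 and 60.7 against 46.0 and 46.9 CPM (0.53, edgeR adjusted p = 0.0347). It fell in NK/innate lymphoid-like (-0.65, adjusted p = 0.00439) and T cell-like cells (-0.73, adjusted p = 0.0435), and neither of these calls held after removal of the trend (adjusted p = 0.0651 and 0.225), where the fibroblast-like change was 0.71 (adjusted p = 0.0104). By the same edgeR test the fibroblast-like call was lost without the first or second homeostatic library (adjusted p = 0.247 and 0.191), as was the T cell-like one (0.265 and 0.171), and the NK/innate lymphoid-like one without the first (0.0667).

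Among 14 listed target genes of ERK signalling, more were called higher than lower in deligated cells. In endothelial-like cells 6 of 12 tested were higher and 1 lower (median log2 fold change 0.65, and 0.62 with the intron-length trend removed, against 0.00 and 0.01 for all genes), in fibroblast-like cells 5 of 11 were higher and 0 lower, and in macrophage-like cells 5 of 10 and 0. The counts were 4 higher and 1 lower of 10 in NK/innate lymphoid-like cells, 4 and 0 of 9 in T cell-like cells and 2 and 0 of 9 in mural-like cells, with none called of 5 in Schwann-like and of 9 in epithelial-like cells. After removal of the intron-length trend the counts were 6 and 1, 4 and 0, 3 and 0, 3 and 1, 2 and 0, and 1 and 0 in endothelial-like, fibroblast-like, macrophage-like, NK/innate lymphoid-like, T cell-like and mural-like cells. In the other 5 of these classes the list's median went from 0.68 to 0.42, 0.72 to 0.51, 0.31 to -0.01, 0.69 to 0.38 and 0.79 to 0.58, in the same order. Higher calls took 12.9, 8.87, 4, 17.1, 4.81 and 0.844% of all genes in these 6 classes as counted. After removal of the trend they took 13.1, 8.46, 2.85, 13.4, 3.23 and 0.628%.

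The immediate early gene Fos rose in endothelial-like (1349 and 1638 against 620.1 and 583.7 CPM, log2 fold change 1.33) and fibroblast-like cells (486.2 and 504.0 against 234.1 and 163.6 CPM, 1.38). In endothelial-like cells Egr1, another immediate early gene, rose by 1.42, and in mural-like cells by 2.37. Dusp5, a phosphatase that acts on ERK, rose in T cell-like cells by 1.93, in NK/innate lymphoid-like cells by 1.45 and in macrophage-like cells by 4.98 (85.1 and 22.4 against 1.41 and 1.13 CPM). Myc rose in endothelial-like cells by 1.86, and Ier3 in fibroblast-like cells by 1.59. Fosl1, an AP-1 factor gene, went the other way, at 0.137 and 0.180 against 5.80 and 7.15 CPM in endothelial-like cells (-5.26) and with -2.67 in NK/innate lymphoid-like cells. Each of these changes had an edgeR adjusted p of at most 0.0161 and stayed past the threshold once the trend was taken out. Leaving out 1 library in turn gave 5 to 8 higher calls in endothelial-like cells, against 1 to 6 for fibroblast-like and 0 to 5 for macrophage-like cells, the lowest each time without a homeostatic library. The range was 1 to 3 for mural-like, 2 to 5 for T cell-like and 3 to 6 for NK/innate lymphoid-like cells, and lower calls numbered at most 2 in each of these fits. In epithelial-like cells, with none called as counted, the range was 0 to 9, the highest without the second deligated library. Without the first or second homeostatic library the edgeR calls of Ier3 in fibroblast-like cells (adjusted p = 0.068 and 0.0513), Fosl1 in NK/innate lymphoid-like cells (0.114 and 0.0523) and Dusp5 in macrophage-like cells (0.273 and 0.224) were lost. Without the second, that of Myc was lost too (0.0783). Immediate early genes also respond to tissue dissociation, and its part in these values was not tested.

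As counted, adaptors and effectors gave more lower than higher calls: 8 lower and 3 higher of 21 in endothelial-like, 6 and 3 of 21 in fibroblast-like, 9 and 3 of 20 in NK/innate lymphoid-like, 4 and 0 of 19 in T cell-like, 2 and 0 of 21 in mural-like and 2 and 0 of 20 in macrophage-like cells. Lower calls took 22.1, 17.7, 26.9, 14.2, 5.44 and 9.42% of all genes in these classes. Higher calls took 12.9, 8.87, 17.1, 4.81, 0.844 and 4%, so all genes too gave more lower than higher calls. After removal of the intron-length trend the lower and higher calls were 4 and 4, 3 and 1, 5 and 3, 0 and 0, 2 and 0, and 2 and 0 in the same order, so that the excess of lower calls ended in endothelial-like and T cell-like cells. Lower calls then took 17.1, 9.37, 16.2, 4.99, 1.87 and 2.42% of all genes, and higher calls 13.1, 8.46, 13.4, 3.23, 0.628 and 2.85%. Gab2, an adaptor with 221.2 kb of intron, changed by -2.70 on the log2 scale in endothelial-like, -3.70 in fibroblast-like, -3.43 in NK/innate lymphoid-like, -2.99 in mural-like and -3.93 in macrophage-like cells. In fibroblast-like cells it stood at 35.1 and 20.0 against 339.3 and 403.0 CPM. Without the trend the Gab2 changes were -1.73, -2.57, -1.92, -2.14 and -2.51, each still called. Gab1, another adaptor, fell in fibroblast-like (-1.44), mural-like (-1.36) and Schwann-like cells (-1.29, edgeR adjusted p = 0.0109), the last not called once the trend was removed (adjusted p = 0.0986). Braf, a kinase upstream of ERK, fell in NK/innate lymphoid-like (-1.49), T cell-like (-1.53) and macrophage-like cells (-3.45), of which the T cell-like call was lost without the trend (adjusted p = 0.129). Leaving out 1 library in turn gave 4 to 11 lower calls in endothelial-like cells, against 4 to 8 for fibroblast-like and 0 to 3 for macrophage-like cells. For T cell-like cells the range was 0 to 5, for NK/innate lymphoid-like cells 6 to 9, and mural-like cells stayed at 2. Higher calls ranged over 0 to 7 for endothelial-like, 0 to 5 for fibroblast-like and 1 to 6 for NK/innate lymphoid-like cells, and over 0 to 1 for the macrophage-like, T cell-like and mural-like classes. The fewest lower calls came without a homeostatic library where the count varied. Lost in this way were Gab2 in macrophage-like cells without the first homeostatic library (edgeR adjusted p = 0.0621), Braf in T cell-like cells without the second (0.059) and in macrophage-like cells without either (0.258 and 0.229), and Gab1 in Schwann-like cells without the second deligated or first homeostatic library (0.207 and 0.371).

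Inhibitors of receptor signalling moved in both directions. In NK/innate lymphoid-like cells 7 of 14 were lower and 1 higher, in T cell-like 5 of 14 and 1, in fibroblast-like 4 of 15 and 1, in endothelial-like 3 of 15 and 2, and in macrophage-like cells 2 of 10 and 1. In mural-like cells 0 of 15 were lower and 1 higher. All genes gave 26.9, 14.2, 17.7, 22.1, 9.42 and 5.44% lower and 17.1, 4.81, 8.87, 12.9, 4 and 0.844% higher calls in these 6 classes. With the trend removed the lower and higher calls were 3 and 2, 1 and 0, 2 and 1, 2 and 2, 1 and 1, and 0 and 1, against 16.2, 4.99, 9.37, 17.1, 2.42 and 1.87% lower and 13.4, 3.23, 8.46, 13.1, 2.85 and 0.628% higher over all genes. As counted, with 1 library left out the lower calls ranged from 3 to 8, 1 to 7, 3 to 7, 3 to 5, 0 to 3 and 0 to 1 in these classes, and the higher calls from 1 to 3, 0 to 2, 0 to 3, 1 to 5, 0 to 1 and 0 to 2. Socs3, an inhibitor of cytokine signalling, rose in endothelial-like (105.9 and 143.3 against 39.3 and 36.2 CPM, log2 fold change 1.73), mural-like (2.66) and macrophage-like cells (2.04). Lrig1, which promotes loss of ErbB receptors, fell in T cell-like cells (-2.32), its relative Lrig2 in fibroblast-like (-1.61) and NK/innate lymphoid-like cells (-1.55), and Errfi1, an EGFR kinase inhibitor, in macrophage-like cells (-1.87). Cblb, a ubiquitin ligase gene with 166.3 kb of intron, fell in fibroblast-like cells (-1.59) and in NK/innate lymphoid-like cells (-1.46), but without the trend the latter change was -0.20 (edgeR adjusted p = 0.195). The fibroblast-like change was then -0.68, and those of Lrig2 were -1.04 in fibroblast-like and -0.71 in NK/innate lymphoid-like cells, each still called. Without 1 library the edgeR calls were lost for Socs3 in mural-like (second deligated, adjusted p = 0.149; second homeostatic, 0.053) and macrophage-like cells (first and second homeostatic, 0.17 and 0.124), Errfi1 (the same, 0.161 and 0.115) and Lrig1 (second homeostatic, 0.0702).

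Genes whose levels ran most like those of the family were found by Pearson correlation over 38 sums of a class and a library, which share depth and library, among 13466 genes. For Egfr they were Plagl1 (0.923), Wnt5a (0.914) and Ankrd35 (0.914), and for Erbb3 Gpr37l1 (0.946), Cmtm5 (0.939) and Slc22a23 (0.935). Fam212b (0.894) ran most like Hbegf, Npdc1 (0.912) like Erbb2 and Arhgef26 (0.725) like Tgfa.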

How the data were processed

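Per the file headers, the deposited values are raw UMI counts per gene and barcode, made with Cell Ranger 6.0.1 (deligated) and 7.0.0 (homeostatic). The submitters' processing notes name mm10 and Seurat; intron counting and strand are not given in the sources used here. The family members and gene lists were chosen with earlier results of these data known. Cells with at least 300 genes and at most 10% mitochondrial UMIs were retained, simulated-doublet scores removed 0.8% per 1000 cells, and 3000 variable genes without the members were clustered (scanpy 1.11.5, Leiden resolution 1.0). Counts summed per class and library, with at least 20 cells in every library, were tested with edgeR 4.0.16 (quasi-likelihood, TMM, filterByExpr); differences between classes used limma 3.58.1. Adjusted p-values are Benjamini-Hochberg over all genes of a class, with a threshold of 0.05 and 2 libraries per group. The intron-length trend was removed with a lowess curve per library on GENCODE M21 lengths (30934 of 31053 identifiers matched, 99.6%). Shares carry exact Clopper-Pearson intervals at 95%, and a count of 0 allows up to 3 counts; both cover counting error only. Named beside the members are, per class, up to 6 listed genes with the largest called change, and every other EGF ligand. The scripts were tested on simulated data.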

Additional observations from a re-analysis of the deposited data

How the results depend on the processing

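Genes called per class as counted were 4618 (endothelial-like), 5108 (NK/innate lymphoid-like), 1863 (T cell-like), 3027 (fibroblast-like), 611 (mural-like), 1200 (macrophage-like), 288 (Schwann-like) and 14 (epithelial-like), and 657, 5 and 0 for the differences fibroblast-like minus endothelial-like, mural-like minus fibroblast-like and T cell-like minus NK/innate lymphoid-like (limma; the 0 had 499 genes at an unadjusted p under 0.05). DESeq2's Wald test called 1043 in T cell-like, 1904 in fibroblast-like, 383 in mural-like, 501 in macrophage-like, 118 in Schwann-like and 229 in epithelial-like cells. Without a filter on low counts 2830 T cell-like and 1022 mural-like genes were called. Removal of the intron-length trend, an alternative in which only offsets change, left 805 T cell-like, 243 mural-like, 471 macrophage-like and 175 Schwann-like calls. The share of higher calls rose from 25.3 to 39.3% in T cell-like cells, and from 33.4 to 47.4% in fibroblast-like, 13.4 to 25.1% in mural-like, 29.8 to 54.1% in macrophage-like and 18.8 to 40% in Schwann-like cells. In number, higher calls fell from 471 to 316 in T cell-like and from 1011 to 964 in fibroblast-like cells. They fell from 82 to 61 in mural-like and from 358 to 255 in macrophage-like cells, and lower calls fell by more in each of these 4 classes. The stricter cell filter gave 79 and a Leiden resolution of 2.0 gave 58 calls in epithelial-like cells. The stricter filter was not run for mural-like and Schwann-like cells, which then had under 20 cells in a library. Keeping doublets was tried for levels only, and no group test was run with them.

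With the replicate number as a block (replicate block) the counts were 155 in epithelial-like cells and 1024, 235 and 4 for the 3 differences, and within 1.5 times elsewhere. The 2 pairs share a number and no stated origin: deviations of same-numbered libraries correlated at -0.165 (endothelial-like and NK/innate lymphoid-like) and -0.114 (T cell-like), and with the numbers crossed, chosen after seeing the data, these classes gave 5265, 5462 and 2398 calls. Leaving out 1 library in turn, with a lone library assumed to vary like the other group, gave 1345 to 4396 calls in fibroblast-like cells, 2367 to 7760 in endothelial-like, 272 to 547 in mural-like, 124 to 270 in Schwann-like, 4 to 1386 in macrophage-like and 60 to 3207 in epithelial-like cells, 3109 to 6764 for NK/innate lymphoid-like and 688 to 2671 for T cell-like cells, and 8 to 910, 4 to 807 and 0 to 54 for the 3 differences. The cause of these shifts was not tested. Ereg and Nrg1 had too few counts for a test in any class, Erbb4 was sparse outside the homeostatic acinar-type cells, and calls of Egf rest on few UMIs.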
